A study of Rattus norvegicus with 60 samples.

Results

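RNA from the lungs of 6 male rats that had inhaled multi-walled carbon nanotubes to a cumulative dose of 22.5 mg/m3 was compared with lung RNA from 6 rats that breathed filtered air at the same time. These 12 libraries were chosen by their sample names, and they are 12 of the 60 libraries of a study of 5 doses, each with concurrent air rats. The exposed animals are rats 61 to 66 and the air animals rats 49 to 54. All were Fischer 344 (F344/DuCrl) rats 3 months old, kept 3 to a cage, and placed in whole-body inhalation chambers for 6 hours a day on 3 days. Lungs were taken 1 day after the last exposure, and total RNA came from a piece of the lung, so each library mixes airway, alveolar, vessel and blood cells. In such bulk RNA, fewer cells of a type and less RNA per cell cannot be told apart. The labels do not say which rats shared a cage, and p-values treat the 6 rats of a group as separate animals.

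Multi-walled carbon nanotubes are nested cylinders of carbon, and inhaled nanotubes settle where the smallest airways open into the alveoli. Macrophages and epithelial cells there take them up and release chemokines, which draw leukocytes from the blood. The airway lining is renewed from secretory and basal cells, some of which become multiciliated cells. In the mouse, that differentiation runs through regulators such as Foxn4 and Ccno and through the deuterosome, a structure that makes many centrioles in a cell that has stopped dividing.

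The libraries held 9947600 to 16176900 counts in genes, rounded to the nearest 100, and values below are CPM, or counts per 1000000 counts of the library, after TMM scaling, which compare a gene between rats but not genes with each other. The lung label was checked with the surfactant protein C gene Sftpc, which ranged from 8426 to 15263 CPM in exposed lungs and from 7931 to 14928 CPM in air lungs. The spread between rats was wide. The common biological coefficient of variation was 0.153 over these 12 libraries and 0.0763 to 0.0970 in the comparisons at the other 4 doses, from which 7 libraries labelled as outliers were left out. Exposed rat 65 and air rat 50 stood farthest from their groups, with median absolute log2 deviations of 0.302 and 0.287. Exposed rats 66 and 62 came next at 0.153 and 0.139, and the other 8 libraries lay between 0.092 and 0.117. Without rats 65 and 50 the coefficient was 0.102. The submitters' labels mark no library of this comparison as an outlier.

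Rats 65 and 50 departed from their own groups in the same direction in most genes. Over all 14939 genes tested, 6208 were higher in both libraries and 5864 were lower in both. The list counts that follow are to be read against this background. Of 25 ribosomal protein genes, 25 were higher in both libraries, by a median of 0.82 on the log2 scale in rat 65 and 0.68 in rat 50. Complex I genes of the mitochondrial respiratory chain were higher in both for 26 of 27 members, and red blood cell genes for 7 of 9. Mesothelial genes, which mark the lung's outer lining, were lower in both for 8 of 9 members, with medians of -1.96 in rat 65 and -1.28 in rat 50, and collagen genes for 22 of 25. Mitosis genes were shifted less, with medians of -0.14 in rat 65 and -0.01 in rat 50. They were lower in both for 13 of 29 members and higher in both for 6. Rat 65 had the lowest mitosis sum of the exposed rats, 385.3 CPM. Exposed rat 66 lay part of the way in the same direction. Its ribosomal sum was 10204 CPM and its complex I sum 1608 CPM. Exposed rats 61 to 64 had 7855 to 8352 CPM and 1286 to 1378 CPM. The shift was therefore not even between the groups. Its part in the results below was not tested beyond leaving the libraries out.

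**Figure D1:**
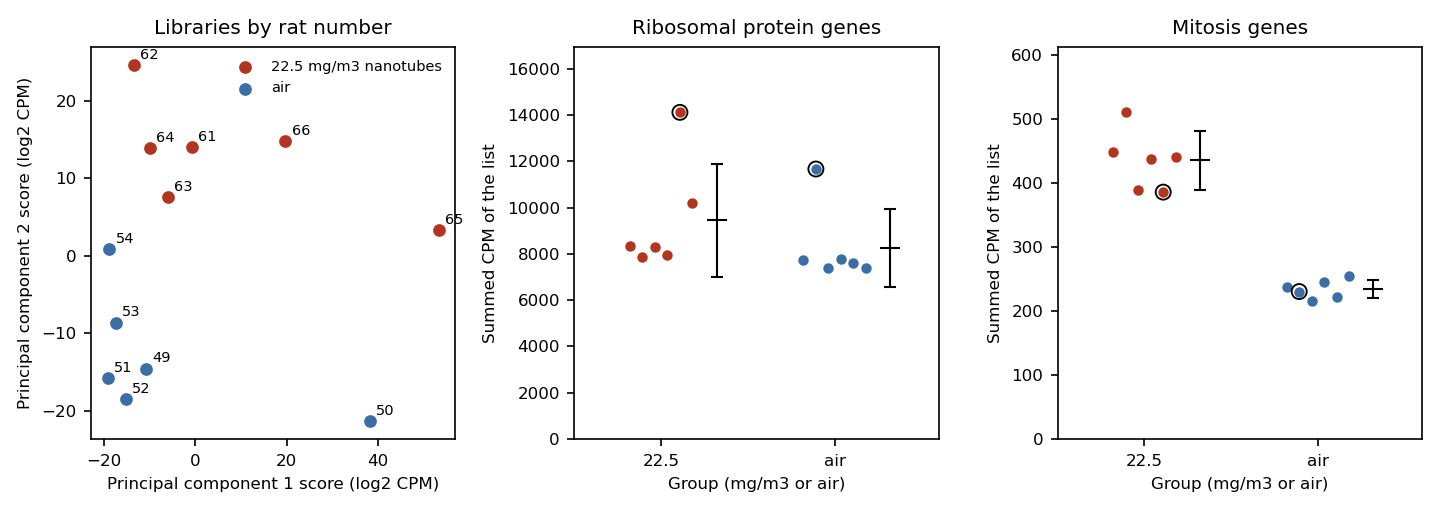
The left panel places each library by its scores on the first and second principal components of log2 CPM, with rat numbers. The other panels give the summed CPM of ribosomal protein genes and of mitosis genes in each rat at 22.5 mg/m3 and in air, with the mean and SD beside the points and rings around rats 65 and 50. Rats 65 and 50 lie far to the right of the other rats of their groups and have the highest ribosomal sums of their groups, 14115 and 11667 CPM, while the mitosis sums of the groups do not overlap.

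Of 14939 genes tested with edgeR's quasi-likelihood test, 319 were higher in exposed lungs (2.14%) and 22 were lower (0.147%) at a Benjamini-Hochberg adjusted p under 0.05. At an unadjusted p under 0.05 the counts were 1140 higher and 572 lower. The median log2 fold change was 0.90 among genes called higher and -0.50 among genes called lower, against -0.00463 over all genes tested. A change of over 2-fold was seen in 136 of the higher genes and in 2 of the lower ones. In 245 of the higher and 12 of the lower genes every exposed rat lay on one side of every air rat, and over all genes tested 1.93% were separated upward and 0.415% downward in this way. All 319 genes called higher were above the air mean in 6 of 6 exposed rats. Without rats 65 and 50 the counts were 497 higher and 84 lower, and without exposed rat 66 alone they were 212 and 11. The lower count was 10 without air rat 49, 41 without air rat 50, 12 without air rat 51, 14 without air rat 53 and 13 without exposed rat 61.

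Across 51 gene lists, 20 held at least 1 gene called higher, 4 held at least 1 called lower and 27 held none. The lists together hold 88 of the 319 higher genes and 5 of the 22 lower ones. Genes for mitosis led by share, followed by regulators of multiciliated cell formation and by acute phase and innate defence genes. Immune cell markers, structural lung cell genes and collagens held few calls or none.

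**Figure D2:**
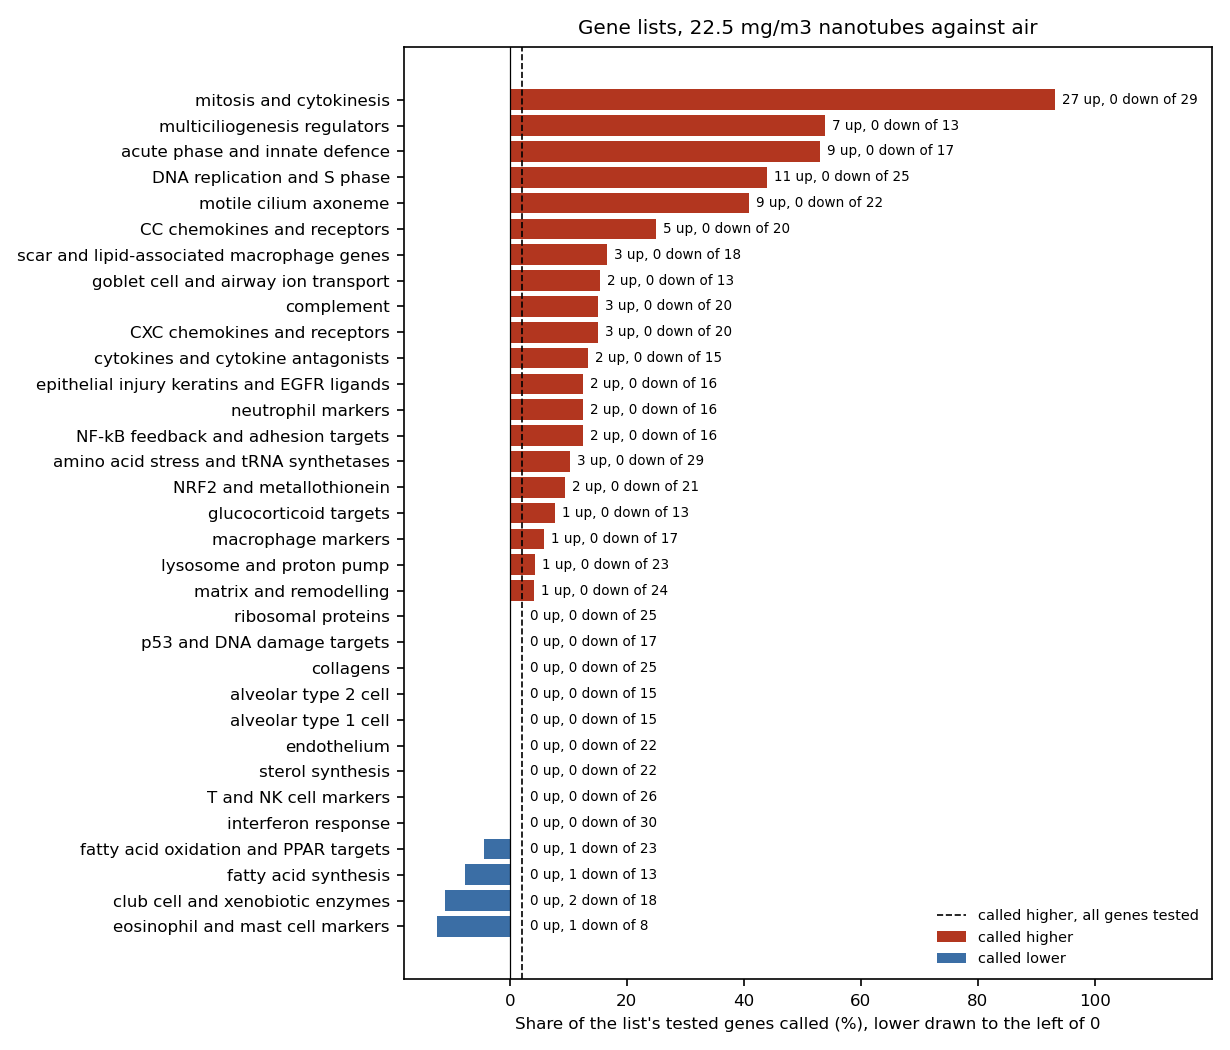
Bars give the share of each list's tested genes called higher, to the right of 0, or lower, to the left, at 22.5 mg/m3 against air, with counts beside them. The dashed line is the 2.14% called higher over all genes tested. The mitosis list stands at 27 of 29, and the endothelial, alveolar, T cell and collagen lists have no call.

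Genes of mitosis and cytokinesis were higher in exposed lungs in 27 of 29 tested members, with a median log2 fold change of 1.19. Their summed level ran from 385.3 to 509.8 CPM with a median of 438.4 in exposed rats, against 216.1 to 253.9 CPM with a median of 233.7 in air rats. The 2 members not called were the kinase gene Aurka (log2 fold change 0.26, adjusted p = 0.34) and the transcription factor gene Foxm1 (0.38, adjusted p = 0.071), which are named because they are the exceptions. The count was 28 without rats 65 and 50 and 23 to 27 when any single library was left out. Promoters of 4 of these genes and of Ccno, the gene with the smallest p in the comparison, are printed here because the mitosis genes moved together while Ccno, also named for a cyclin, belongs to another list. Each sequence runs 5′ to 3′ from 250 bases before to 50 bases after the RefSeq start on build GRCr8. Capitals mark the cell cycle homology region motif TTTGAA and the CCAAT box, on either strand, so that ATTGG in capitals is a CCAAT box on the opposite strand.
Cdk1: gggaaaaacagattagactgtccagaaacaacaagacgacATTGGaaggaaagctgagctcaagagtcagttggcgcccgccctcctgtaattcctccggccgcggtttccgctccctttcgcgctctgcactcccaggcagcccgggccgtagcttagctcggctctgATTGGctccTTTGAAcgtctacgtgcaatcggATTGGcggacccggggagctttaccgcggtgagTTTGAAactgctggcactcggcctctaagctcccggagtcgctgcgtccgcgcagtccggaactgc
Cdc20: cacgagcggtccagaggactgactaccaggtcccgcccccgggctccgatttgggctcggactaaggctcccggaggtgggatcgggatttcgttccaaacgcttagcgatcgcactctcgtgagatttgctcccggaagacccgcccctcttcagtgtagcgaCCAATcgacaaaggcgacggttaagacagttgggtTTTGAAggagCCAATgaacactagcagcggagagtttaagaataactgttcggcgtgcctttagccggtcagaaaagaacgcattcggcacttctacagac
Plk1: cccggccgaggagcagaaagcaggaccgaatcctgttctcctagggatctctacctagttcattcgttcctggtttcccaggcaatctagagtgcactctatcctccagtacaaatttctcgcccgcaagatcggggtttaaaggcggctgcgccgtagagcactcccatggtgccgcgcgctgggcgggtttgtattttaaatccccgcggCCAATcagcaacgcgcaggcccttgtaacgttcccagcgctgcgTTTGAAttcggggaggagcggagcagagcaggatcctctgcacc
Ccnb1: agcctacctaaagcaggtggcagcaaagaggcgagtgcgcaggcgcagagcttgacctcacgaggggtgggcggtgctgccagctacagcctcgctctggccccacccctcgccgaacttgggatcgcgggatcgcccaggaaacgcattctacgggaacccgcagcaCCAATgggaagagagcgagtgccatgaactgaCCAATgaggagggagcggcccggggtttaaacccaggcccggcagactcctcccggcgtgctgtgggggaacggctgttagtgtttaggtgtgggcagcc
Ccno: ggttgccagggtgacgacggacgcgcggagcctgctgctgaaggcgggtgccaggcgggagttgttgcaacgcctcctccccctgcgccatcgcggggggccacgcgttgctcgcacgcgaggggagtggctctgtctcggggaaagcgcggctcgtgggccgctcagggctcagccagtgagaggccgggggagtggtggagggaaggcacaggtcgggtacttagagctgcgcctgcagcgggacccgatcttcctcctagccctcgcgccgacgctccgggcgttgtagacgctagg
The Cdk1 sequence is chr20:19265043-19265342 on the plus strand, Cdc20 is chr5:137255750-137256049 on the minus strand and Plk1 is chr1:186147408-186147707 on the plus strand. Ccnb1 is chr2:33655176-33655475 on the minus strand and Ccno is chr2:46363824-46364123 on the plus strand. TTTGAA was present in 18 of the 24 promoters that the table holds for the 29 mitosis genes (75%) and in 18.1% of all 27457 promoters. CCAAT was also in 18 of the 24 (75%), against 37.7% of all promoters, and both motifs were in 14 (58.3%), against 7.3%. For DNA replication and S phase genes, CCAAT was in 13 of 20 promoters (65%) and TTTGAA in 1 (5%). Cdk1, Cdc20 and Plk1 hold both motifs, Ccnb1 holds CCAAT alone, and Ccno holds neither in this window. The motifs do not overlap each other, and a match describes letters, not a bound site.

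Cdk1, the kinase that drives entry into mitosis, had 12.3, 14.8 and 19.0 CPM as its lowest, median and highest values in exposed rats, against 3.75, 4.81 and 6.43 CPM in air rats. The groups were apart, and rat 65 was the highest exposed animal. The log2 fold change was 1.61 (SE 0.15, edgeR adjusted p = 4.8e-05). Cdc20, which activates the anaphase ubiquitin ligase, had 11.2, 11.5 and 15.04 CPM in exposed rats and 3.71, 4.53 and 5.25 CPM in air rats. The exposed values other than that of rat 65 lay between 11.2 and 12.1 CPM, and the log2 fold change was 1.43 (SE 0.11, edgeR adjusted p = 9.3e-06). Plk1, a mitotic kinase, had 6.19, 6.71 and 7.67 CPM in exposed rats and 2.61, 2.79 and 3.72 CPM in air rats, also apart. The cyclin gene Ccnb1 had 4.64, 5.73 and 6.05 CPM in exposed rats, against 1.35, 2.25 and 3.08 CPM in air rats. Mki67, the proliferation marker known as Ki-67, had 20.6, 24.4 and 26.8 CPM in exposed rats, against 9.52, 10.7 and 14.2 CPM in air rats, and its log2 fold change was 1.10 (SE 0.11, edgeR adjusted p = 0.00011). Top2a, a topoisomerase of dividing cells, was higher by 1.44 on the log2 scale (SE 0.15, edgeR adjusted p = 0.0002). Cell division genes among the 12 largest rises were the centrosome kinase gene Nek2 (log2 fold change 2.43), the ubiquitin-conjugating enzyme gene Ube2t (2.22) and E2f7, which encodes a repressor of cell cycle genes. E2f7 had 3.44, 4.26 and 4.81 CPM in exposed rats, against 0.724, 0.957 and 1.01 CPM in air rats, a 4.57-fold difference.

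DNA replication and S phase genes were called higher in 11 of 25 members and lower in none, with a median log2 fold change of 0.55 and all 25 above 0. Their summed level was 389.7 to 438.8 CPM in exposed rats and 294.3 to 326.8 CPM in air rats. Mcm5, a subunit of the replicative helicase, had 12.2, 14.4 and 16.2 CPM in exposed rats, against 4.56, 6.28 and 6.75 CPM in air rats. The groups did not overlap and the log2 fold change was 1.30 (SE 0.12, edgeR adjusted p = 6.8e-05). Among the other helicase subunits, Mcm3 was higher by 0.55 (edgeR adjusted p = 0.00056) while Mcm7, at 0.19, was not called (adjusted p = 0.24). Rrm2, a ribonucleotide reductase subunit, was higher by 1.18 (SE 0.16), and Tk1, a thymidine kinase, by 0.96 (SE 0.11). Pcna, the sliding clamp of DNA polymerases, had a log2 fold change of 0.31 and was not called (edgeR adjusted p = 0.25). Without rats 65 and 50, 14 of the 25 were called.

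Among regulators of multiciliated cell formation, 7 of 13 tested members were higher and none was lower, with a median log2 fold change of 0.76. The summed level was 278.5 to 317.9 CPM in exposed rats and 197.8 to 215.2 CPM in air rats. Ccno, a cyclin-family gene needed for centriole amplification, had 17.9, 18.2 and 23.4 CPM in exposed rats, against 1.23, 1.46 and 1.97 CPM in air rats. The lowest exposed rat was far above the highest air rat, and the log2 fold change was 3.67 (SE 0.13, edgeR adjusted p = 1.8e-09). Foxn4, a forkhead transcription factor gene, had 3.76, 4.28 and 5.38 CPM in exposed rats and 0.00, 0.217 and 0.506 CPM in air rats. Its fitted log2 fold change of 4.21 (SE 0.34, edgeR adjusted p = 1.6e-05) was the largest rise named, and 1 air library had no count of it. Ccdc67, an older symbol of the deuterosome gene Deup1, had 12.7, 16.9 and 18.1 CPM in exposed rats, against 3.80, 4.77 and 5.90 CPM in air rats. The log2 fold change of Ccdc67 was 1.73 (SE 0.12, edgeR adjusted p = 4.6e-06). Stil and Plk4, which act in centriole assembly in dividing cells too, were higher by 2.01 (SE 0.18) and 1.30 (SE 0.14). Foxj1, the master regulator of motile cilia, was higher by 0.76 (SE 0.12, edgeR adjusted p = 0.0028), and the cyclin gene Ccna1 by 0.78. Gmnc, Cep152, Rfx2, Rfx3, E2f4 and E2f5 were not called, with log2 fold changes between -0.0049 for Rfx2 and 0.30 for Gmnc. The 7 calls stood whichever single library was left out.

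In the axoneme list, which holds structural parts of motile cilia, 9 of 22 tested members were higher, with a median log2 fold change of 0.48, and the summed levels overlapped, at 1691 to 2243 CPM in exposed rats and 1422 to 2196 CPM in air rats. The dynein gene Dnai2 had 14.0, 17.5 and 19.9 CPM in exposed rats, against 7.60, 9.64 and 12.5 CPM in air rats, and its log2 fold change was 0.81 (SE 0.13, edgeR adjusted p = 0.0026). Tekt1, a tektin of the ciliary microtubules, was higher by 0.78 (SE 0.15), and its lowest exposed value, 20.6 CPM, was close to its highest air value, 20.5 CPM. Spag6, of the central pair of microtubules, was higher by 0.63 (SE 0.12). The count moved with single libraries: 3 members were called without air rat 51 or exposed rat 66, 4 without air rat 49, 52 or 53 or exposed rat 62, and 5 without exposed rat 61, while 14 were called without rats 65 and 50.

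Prss30, Gabrp, Tmc5 and Bpifb1 were also among the 12 largest rises. Prss30, a serine protease gene, had 5.57, 6.15 and 9.66 CPM in exposed rats, against 0.0905, 0.262 and 1.23 CPM in air rats, and its log2 fold change was 3.74 (SE 0.38, edgeR adjusted p = 0.00012). Gabrp, a GABA receptor subunit gene, had 10.9, 16.6 and 22.0 CPM in exposed rats and 0.793, 1.46 and 5.34 CPM in air rats. Tmc5, of the transmembrane channel-like family, had 9.63, 12.5 and 19.5 CPM in exposed rats, against 0.843, 1.04 and 4.30 CPM in air rats. In all 3 genes the groups were apart and the highest air value was that of rat 54. Bpifb1, a secreted protein of airway glands and surface cells, had 41.4, 68.0 and 107 CPM in exposed rats, against 3.71, 6.35 and 32.5 CPM in air rats, where rat 54 was again the highest. Its log2 fold change was 2.52 (SE 0.47, edgeR adjusted p = 0.0099), and without rats 65 and 50 the adjusted p was 0.067.

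Among goblet cell and airway ion transport genes, 2 of 13 were higher. Slc26a4, the anion exchanger pendrin, had 9.89, 24.4 and 28.05 CPM in exposed rats and 4.73, 7.82 and 12.9 CPM in air rats. Rat 63 was the only exposed animal inside the air range, and the log2 fold change was 1.52 (SE 0.26, edgeR adjusted p = 0.0058). Agr2, which folds mucins in the endoplasmic reticulum, was higher by 1.17 (SE 0.21, edgeR adjusted p = 0.0087). Clca1, a goblet cell secreted protein, had 7.31, 14.0 and 83.0 CPM in exposed rats, against 0.163, 1.116 and 33.0 CPM in air rats, and was not called (log2 fold change 1.74, edgeR adjusted p = 0.58). Exposed rat 62 and air rat 54 gave its highest values. Without air rat 54 its log2 fold change was 3.80 and it was called (edgeR adjusted p = 0.049). Krt15, a basal cell keratin gene, was higher by 1.22 (SE 0.29, edgeR adjusted p = 0.044).

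Acute phase and innate defence genes were higher in 9 of 17 tested members and lower in none, with a median log2 fold change of 0.69, and the summed level was 4435 to 5734 CPM in exposed rats and 2696 to 3546 CPM in air rats. Chia, an acidic chitinase gene, had 487, 538 and 709.6 CPM in exposed rats, against 113.6, 142 and 179 CPM in air rats. The exposed rats were all above the air rats, and the log2 fold change was 1.98 (SE 0.12, edgeR adjusted p = 1.1e-06). Chi3l1, a chitinase-like secreted protein, had 272, 358 and 473 CPM in exposed rats and 139.7, 168 and 219 CPM in air rats, with a log2 fold change of 1.08 (SE 0.14, edgeR adjusted p = 0.00081). Retnla, a secreted protein made by alternatively activated macrophages and epithelium in mice, had 24.8, 57.4 and 104 CPM in exposed rats, against 9.44, 14.3 and 24.4 CPM in air rats. Rat 63 lay just above the air range and rat 65 was the highest, and the log2 fold change was 2.003 (SE 0.32, edgeR adjusted p = 0.0031). Lcn2, an iron-sequestering protein of neutrophils and epithelium, had 26.1, 46.0 and 68.0 CPM in exposed rats and 9.15, 14.3 and 22.1 CPM in air rats. C3, the central complement component, was higher by 0.92 (SE 0.13, edgeR adjusted p = 0.0012). The remaining calls in the list were Bpifb1, Cfb, the lipopolysaccharide-binding protein gene Lbp (0.35) and the pentraxin gene Ptx3 (1.05), the last 2 named after their values were seen. Mbl1, a mannose-binding lectin gene that is not in the list and was one of the 12 largest rises, was higher by 2.12 (SE 0.32, edgeR adjusted p = 0.0021). Complement genes as a list had 3 of 20 called higher, C3, C6 and Cfb. It had 7 without rats 65 and 50, with C7 (0.31) and the first-component genes C1qa (0.32), C1qb (0.36) and C1qc (0.28) added.

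CC chemokine and receptor genes were called higher in 5 of 20 members, with a median log2 fold change of 0.14. Ccl2, which draws monocytes, had 8.25, 11.7 and 16.7 CPM in exposed rats and 3.00, 3.54 and 4.85 CPM in air rats, and its log2 fold change was 1.64 (SE 0.18, edgeR adjusted p = 0.00024). Ccl9, a macrophage chemokine, had 76.5, 92.8 and 108 CPM in exposed rats, against 35.5, 40.2 and 67.7 CPM in air rats. These groups were apart for both genes. Ccl7 (1.65, SE 0.37), Ccl17 (1.34, SE 0.24) and Ccl4 (0.51, SE 0.10) were the other calls. Ccl22, which shares its receptor with Ccl17, had a log2 fold change of 0.86 and was not called (edgeR adjusted p = 0.098). It was called in the 53-library fit (edgeR adjusted p = 0.0023). That fit shares 1 spread per gene over all doses, with a common coefficient of variation of 0.107 against 0.153 in these 12 libraries. Its p-values may therefore understate the spread between these rats. Of 20 CXC chemokine and receptor genes, 3 were higher. Cxcl6, which draws neutrophils, had 4.21, 11.1 and 18.3 CPM in exposed rats and 0.859, 2.33 and 4.47 CPM in air rats. Rat 63 was within the air range, and the log2 fold change was 2.17 (SE 0.41, edgeR adjusted p = 0.01). Cxcl1 (1.34, SE 0.29) and Cxcl2 (1.31, SE 0.25), further neutrophil chemokines, were also higher. Without rats 65 and 50 the adjusted p was 0.071 for Cxcl6, 0.060 for Ccl7 and 0.103 for Cxcl1.

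**Figure D3:**
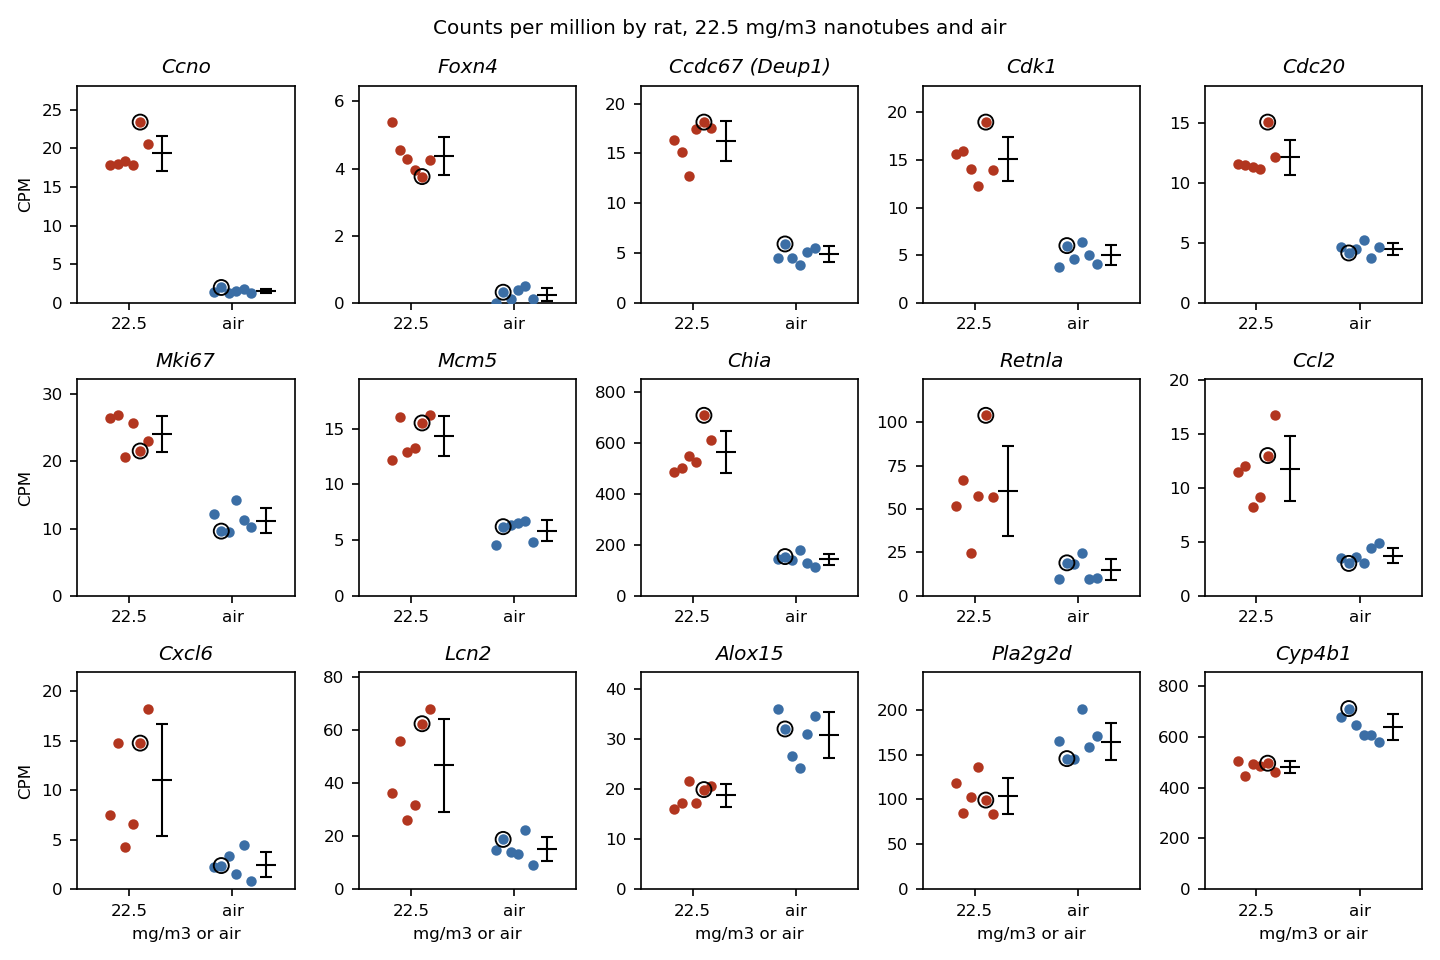
Each panel plots CPM of 1 gene in the 6 rats at 22.5 mg/m3 and the 6 air rats, with the mean and SD beside the points and rings around rats 65 and 50. Ccno, Foxn4, Ccdc67 and Chia leave a wide gap between the groups, Cxcl6 overlaps, and Alox15, Pla2g2d and Cyp4b1 are lower in every exposed rat than in any air rat.

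Of 15 cytokine and antagonist genes, 2 were called higher. Il1rn, the interleukin 1 receptor antagonist, had 50.6, 57.7 and 65.05 CPM in exposed rats, against 34.3, 40.2 and 47.7 CPM in air rats, and a log2 fold change of 0.52 (SE 0.08, edgeR adjusted p = 0.0039). Il1r2, the decoy receptor, was higher by 1.02 (SE 0.16, edgeR adjusted p = 0.0028). The cytokine gene Il1b had 31.1, 41.9 and 61.5 CPM in exposed rats and 19.0, 27.8 and 35.4 CPM in air rats, and was not called (log2 fold change 0.69, edgeR adjusted p = 0.06). It was called in the 53-library fit (adjusted p = 0.0012), by DESeq2 (0.0076), by limma-voom (0.012), and without air rat 50 (0.031) or exposed rat 62 (0.036). Csf1, a growth factor gene of macrophages, had a log2 fold change of 0.32 (edgeR adjusted p = 0.065) and was called without exposed rat 65 (adjusted p = 0.0102), in the 53-library fit (0.0025), by DESeq2 (0.017) and by limma-voom (0.0023). Il33, an alarmin of epithelial cells, had a log2 fold change of -0.09 (SE 0.07). Sele, the endothelial selectin that slows leukocytes, was higher by 1.36 (SE 0.22, edgeR adjusted p = 0.0031), and Bcl3 by 0.51 (SE 0.12), the only calls among 16 NF-kB feedback and adhesion genes. That list had 4 without rats 65 and 50, with Nfkb2 (0.29) and Selp (0.69) added.

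Leukocyte markers held few calls. Neutrophil markers were called higher in 2 of 16 members, Il1r2 and Lcn2, both of which also stand in other lists, and the summed level was 397 to 538 CPM in exposed rats and 299.9 to 373 CPM in air rats, without overlap. The defining neutrophil gene S100a9 had a log2 fold change of 0.58 and S100a8 one of 0.49, neither called (edgeR adjusted p = 0.14 and 0.33). Both were called without rats 65 and 50 (S100a9 at 0.53, adjusted p = 0.0050, and S100a8 at 0.48, adjusted p = 0.019), and the list had 4 calls of 16. S100a9 was also called without air rat 50 alone (adjusted p = 0.035), in the 53-library fit (0.0096), by DESeq2 (0.047) and by limma-voom (0.0099). Of 17 macrophage markers, Cd14 alone was called higher (0.37, SE 0.07), and the summed level was 1547 to 2090 CPM in exposed rats and 1478 to 2108 CPM in air rats. With rats 65 and 50 left out, 3 macrophage markers were called higher, and Siglec1, a sialic acid-binding lectin gene, was called lower (-0.48, adjusted p = 0.039). Among 18 genes of scar and lipid-associated macrophages, Atp6v0d2, a proton pump subunit gene, was higher by 0.97, the cystine transporter gene Slc7a11 by 1.27 and the galectin-3 gene Lgals3 by 0.52. Spp1, the osteopontin gene, had 12.2, 18.2 and 30.7 CPM in exposed rats, against 2.28, 9.05 and 25.99 CPM in air rats, and was not called (edgeR adjusted p = 0.57). No gene was called among 26 T and NK cell markers, 14 B and plasma cell markers and 11 MHC class II genes. The part of cell numbers in the chemokine and defence results was not tested.

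Lists of stress and metabolism genes held few calls. Sod2, the mitochondrial superoxide dismutase, had 202, 234 and 269 CPM in exposed rats and 115, 137 and 159.5 CPM in air rats, with the groups apart and a log2 fold change of 0.80 (SE 0.09, edgeR adjusted p = 0.00024). With Slc7a11 it made up the 2 calls among 21 NRF2 and metallothionein genes, and the antioxidant gene Hmox1 had a log2 fold change of 0.31 (edgeR adjusted p = 0.34). Of 29 amino acid stress and tRNA synthetase genes, 3 were higher, the mitochondrial folate enzyme gene Mthfd2 (0.58), the serine synthesis gene Psat1 (0.47) and the amino acid transporter gene Slc7a5 (0.49). Tnn, a tenascin gene, had 0.860, 1.42 and 2.04 CPM in exposed rats, against 0.0814, 0.366 and 0.496 CPM in air rats, and was the 1 call among 24 matrix and remodelling genes. Ybx2, an RNA-binding protein gene best known in germ cells, was higher by 2.02 (SE 0.17, edgeR adjusted p = 2.1e-05).

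The 22 genes that were lower in exposed lungs included enzymes of club cells and of lipid metabolism. Cyp4b1, a cytochrome P450 of club cells, had 447, 488 and 504 CPM in exposed rats, against 580.1, 627 and 711 CPM in air rats. Every exposed rat was below every air rat, and the log2 fold change was -0.41 (SE 0.06, edgeR adjusted p = 0.0024). Fmo2, a lung monooxygenase gene, fell by 0.45 on the log2 scale (SE 0.10, edgeR adjusted p = 0.036), and these were the 2 calls among 18 club cell and xenobiotic enzyme genes. Scgb1a1, the main club cell secretory protein, had 4451, 4925 and 8200.0 CPM in exposed rats and 5123, 5776 and 10187 CPM in air rats, and was not called (edgeR adjusted p = 0.78). The lipid enzyme genes Alox15 and Pla2g2d were lower in every exposed rat than in any air rat. Alox15, a lipoxygenase, had 15.96, 18.6 and 21.7 CPM in exposed rats, against 24.2, 31.6 and 36.2 CPM in air rats, a log2 fold change of -0.72 (SE 0.11, edgeR adjusted p = 0.0026). Pla2g2d, a secreted phospholipase, had 83.3, 101.04 and 136 CPM in exposed rats, against 145.2, 162.1 and 202 CPM in air rats, and fell by 0.66 (SE 0.12). Alox15 was also the 1 call among 8 eosinophil and mast cell markers.

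The largest fall was that of Star, which carries cholesterol into mitochondria, with 0.940, 1.75 and 2.38 CPM in exposed rats, against 3.00, 3.85 and 10.1 CPM in air rats, where rat 52 stood high. Its log2 fold change was -1.45 (SE 0.31, edgeR adjusted p = 0.022). RGD1566226, a symbol that carries no gene name, was also called lower, with a log2 fold change of -1.43. Among genes with a name, Adhfe1, a mitochondrial hydroxyacid-oxoacid transhydrogenase gene, fell by 0.79 (SE 0.16) and Serpind1, the heparin cofactor II gene, by 0.76 (SE 0.18). Smaller falls were seen for the sarcomere gene Mypn (-0.56), the coronin gene Coro6 (-0.53), the peroxisomal transporter gene Abcd2 (-0.53), the peptide transporter gene Slc15a2 (-0.48) and Nsun7 (-0.41). Srebf1, which switches on fatty acid synthesis, fell by 0.38 (SE 0.09, edgeR adjusted p = 0.046), the 1 call among 13 fatty acid synthesis genes.

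Many structural and metabolic lists held no call. All 22 sterol synthesis genes had positive log2 fold changes, with a median of 0.22, and none was called. Idi1, which makes the isoprenoid building block dimethylallyl diphosphate, had 43.9, 52.8 and 62.7 CPM in exposed rats, against 36.4, 40.4 and 45.9 CPM in air rats (log2 fold change 0.38, edgeR adjusted p = 0.055), and Hmgcs1 had one of 0.32 (adjusted p = 0.071). Without rats 65 and 50, 8 of the 22 were called higher. Interferon response genes were positive in 28 of 30 members with a median of 0.11, and none was called. Collagens had a median of -0.13 over 25 genes with no call, Col1a1 being at -0.05 (SE 0.11). The 15 genes each of alveolar type 1 and type 2 cells, 22 endothelial genes and 17 p53 and DNA damage genes held no call. The collagen, type 2 cell and endothelial lists each held 1 gene called lower without rats 65 and 50. The type 2 cell genes Sftpc (0.05, SE 0.16) and Sftpd (0.26, SE 0.12) were not called.

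Some calls near the threshold depended on single libraries, and 53 of the 72 called genes given by name or list rule were called whichever library was left out. Among the chemokines, Cxcl1 lost its call without air rats 51 or 52 or exposed rats 62, 65 or 66, and Ccl7 without air rats 49, 51, 52 or 53 or exposed rats 62 or 66, with adjusted p up to 0.064 and 0.080. Slc7a11 lost it without air rats 49, 51 or 53 or exposed rats 61, 62 or 66, and Atp6v0d2 without air rats 49, 51, 53 or 54 or exposed rats 61 or 64. Lgals3 kept its call only without rats 50, 52, 62, 63 or 65, Bcl3 only without 50, 54, 62 or 63, and Krt15 only without 50, 54, 63 or 64. C6 kept it only without 49, 50 or 64, and Cfb only without 50, 52 or 63, with adjusted p up to 0.109 and 0.11. The complement list then had 1 call in place of 3 without air rats 51, 53 or 54 or exposed rats 61, 62 or 66. The scar and lipid-associated macrophage list had 0 without air rats 49, 51 or 53 or exposed rat 61, 1 without air rat 54 or exposed rats 64 or 66, and 5 without air rat 52. Ccdc39, an axoneme assembly gene (log2 fold change 0.52), lost its call without air rat 51 or exposed rat 66. Of the genes that fell, Star lost its call without exposed rat 61 (adjusted p = 0.055), Coro6 without air rat 53, and Nsun7 without air rats 49, 51 or 53. Slc15a2 lost it without air rats 49 or 53 or exposed rats 61 or 66. Srebf1 kept its call only without 50, 61, 64 or 65, Abcd2 only without 50, 51, 54 or 64, Serpind1 only without 52, 54 or 65, Fmo2 only without 50 or 63, and Mypn only without 50. With rats 65, 50 and 66 all left out, 18 of 241 named genes lost their call and 12 gained one. Those lost included Lcn2, Retnla, Slc26a4 and Ccl9, with edgeR adjusted p of 0.062, 0.069, 0.109 and 0.052.

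The response at 22.5 mg/m3 was then set beside those at the other doses. Each was taken against its own air rats, so no control animal is shared. Each dose was also a separate exposure run, so dose and run differ together, and a difference between doses cannot be assigned to dose. Without the labelled outliers, the exposed and air rats numbered 5 and 6 at 11.25 mg/m3 and 6 and 3 at 45 mg/m3. They numbered 4 and 6 at 90 mg/m3 and 5 and 6 at 180 mg/m3, so counts of calls are not of equal strength. Among the genes tested at each dose, 3 were higher at 11.25 mg/m3 (0.0201%) and 0 lower (0%), and the counts were 777 (5.02%) and 403 (2.61%) at 45 mg/m3, 1196 (7.94%) and 803 (5.33%) at 90 mg/m3, and 1779 (12%) and 1540 (10.4%) at 180 mg/m3. Of the 319 genes higher at 22.5 mg/m3, 2 were also called higher at 11.25 mg/m3 (0.627% of the 319 and 66.7% of the 3), 248 at 45 mg/m3 (77.7% and 31.9% of the 777), 295 at 90 mg/m3 (92.5% and 24.7%) and 277 at 180 mg/m3 (86.8% and 15.6%). The 22 lower genes included 0, 13, 19 and 17 called lower at these doses in turn, and none of these 341 genes was called in the opposite direction at another dose. The median log2 fold change of the 319 genes was 0.13 at 11.25, 0.90 at 22.5, 0.78 at 45, 0.93 at 90 and 0.99 at 180 mg/m3. Only 305 of the 319 were tested at 11.25 mg/m3 and 317 at 180 mg/m3. The medians cover the genes tested, and the percentages of the 319 count untested genes as not shared. The value at 22.5 mg/m3 is the one these genes were selected on.

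In a fit of 53 libraries, the effect at 22.5 mg/m3 differed from that at 11.25 mg/m3 in 125 of 15995 genes, by the test of the difference itself. The spread shared over all doses in this fit had a common coefficient of variation of 0.107, against 0.153 in the 12 libraries alone. The SE and p-values of these differences may therefore be too small. The effect at 22.5 mg/m3 was compared in both directions. It was more negative in 13 of them (0.0813% of those tested) and more positive in the others (0.7%). Without air rat 50 the count was 274 in place of 125. The more positive effects included 19 of 29 mitosis genes, 7 of 25 S phase genes, 6 of 14 multiciliogenesis genes and 3 of 18 acute phase genes. For Ccno the log2 fold change was 1.51 (SE 0.16) at 11.25 mg/m3 and 3.67 (SE 0.13) at 22.5 mg/m3, a difference of 2.15 (SE 0.23, edgeR adjusted p = 2.4e-08). Chia, the other gene called at both doses, had 0.99 (SE 0.11) and 1.98 (SE 0.12), a difference of 0.99 (SE 0.17, edgeR adjusted p = 0.00043). Cdk1 was not called at 11.25 mg/m3 (0.18, SE 0.13), and the difference was 1.43 (SE 0.19, edgeR adjusted p = 1.4e-05). Cyp4b1 differed by -0.32 (SE 0.07, edgeR adjusted p = 0.014). Against 45 mg/m3, edgeR called 0 genes (0%), DESeq2 0 and limma-voom 1, with 721 genes at an unadjusted p under 0.05 and a smallest adjusted p of 0.412. Only 3 air rats were used at 45 mg/m3, so differences may go uncalled. For Ccno the difference from 45 mg/m3 was 0.30 (SE 0.25), for Cdk1 0.31 (SE 0.20) and for Mki67 0.12 (SE 0.16).

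Values at the other doses differed in order from gene to gene. Ccno had log2 fold changes of 3.38, 3.53 and 3.17 at 45, 90 and 180 mg/m3, beside 3.67 at 22.5 mg/m3. Ccl2 had 0.39, 1.64, 1.25, 2.08 and 3.50 from the lowest to the highest dose, and Retnla 0.55, 2.003, 1.85, 2.87 and 3.35. Alox15 had -0.21, -0.72, -0.98, -1.40 and -1.92. Differences of the 90 and 180 mg/m3 effects from that at 22.5 mg/m3 were not tested.

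**Figure D4:**
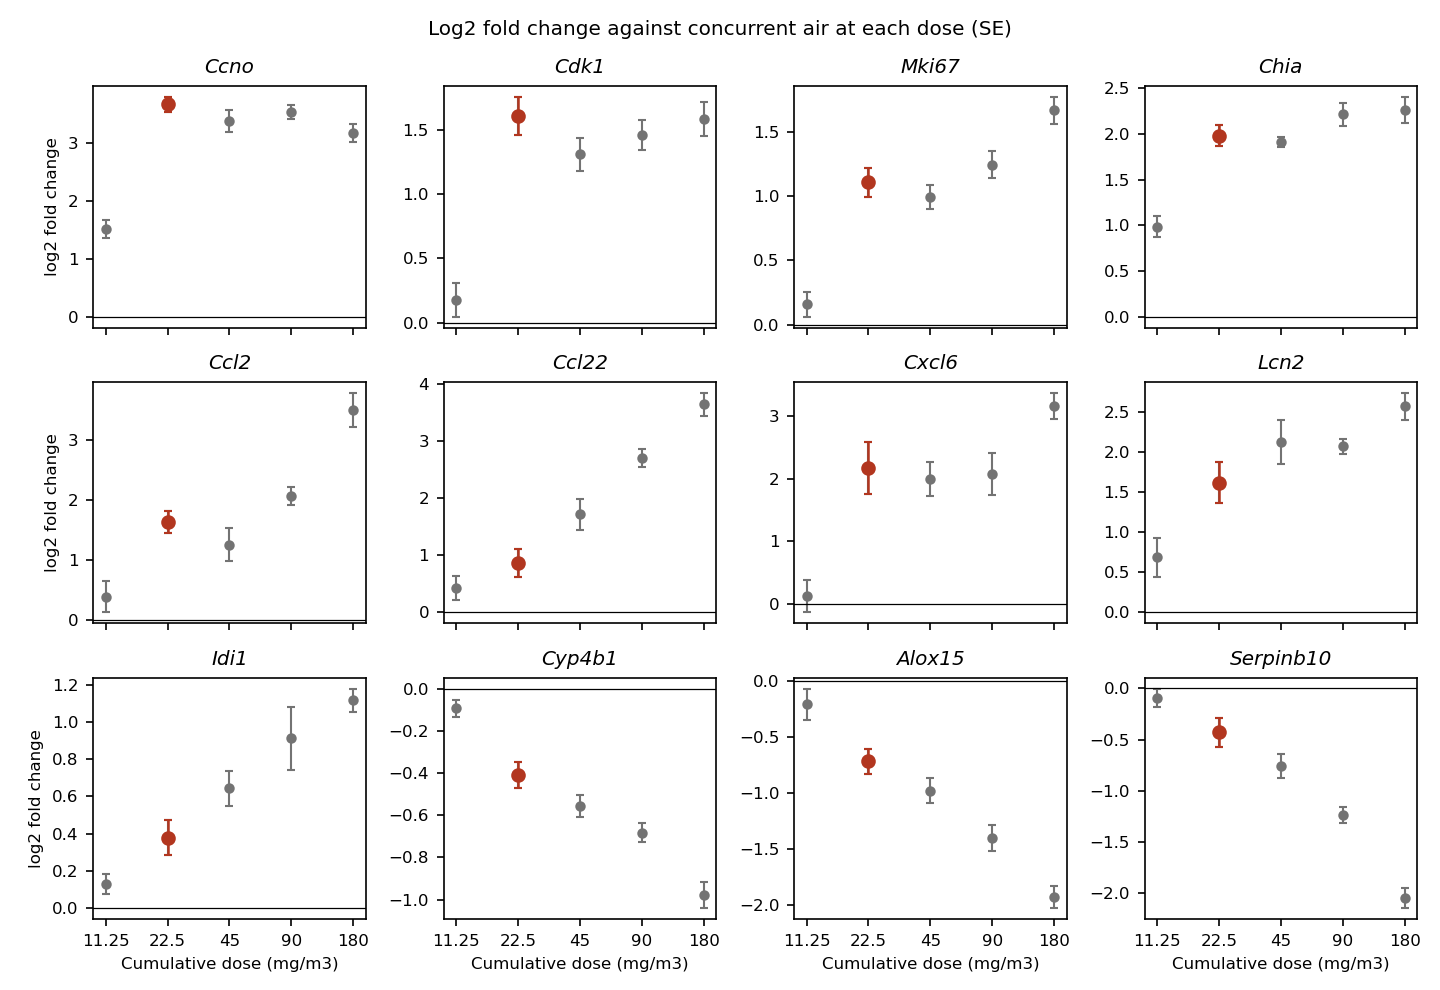
Each panel gives the log2 fold change of 1 gene against concurrent air at cumulative doses of 11.25 to 180 mg/m3, with SE as bars and 22.5 mg/m3 in red. Ccno has its highest point, 3.67, at 22.5 mg/m3, while Ccl2 has its highest, 3.50, and Alox15 its lowest, -1.92, at 180 mg/m3.

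A few genes varied widely between rats of the same group, and they are described without a test of that spread. Zbtb16, a transcription factor gene that responds to glucocorticoids, had 3.87 to 117.8 CPM in exposed rats and 4.24 to 188 CPM in air rats, where rats 53 and 54 were at 188 and 187 CPM. Bpifa1, a secreted protein of the upper airways, had 0.0860 to 108.8 CPM in exposed rats and 0.00 to 71.2 CPM in air rats, with rats 62 and 54 the highest, as they were for Clca1. Selenbp1 was at 28.3 and 26.1 CPM in exposed rats 65 and 66, and between 0.602 and 1.42 CPM in the other 4 exposed rats, against 0.737 to 1.59 CPM in air rats. Heart muscle genes ranged widely in air, as for the myosin gene Myh6, which was at 6.30 to 26.9 CPM in exposed rats and at 0.0905 to 117.6 CPM in air rats. Pdcd5 had 0.0815 to 13.5 CPM in exposed rats and 0.00 to 15.7 CPM in air rats. None of these was called between the groups in the 12 libraries. Selenbp1, with a log2 fold change of 3.08 (edgeR adjusted p = 0.17), was called in the 53-library fit (adjusted p = 0.028) and by DESeq2 (0.036).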

How the data were processed

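Lung RNA of 60 rats was sequenced, and raw counts per gene symbol were deposited by the authors in a table of 30045 rows with no normalisation. Per the submitters' processing notes, the tools were bcl2fastq 2.19, Trimmomatic 0.35, HISAT2 2.1.0, Cufflinks, SAMtools 1.8 and HTSeq 0.11.2. Libraries came from a stranded mRNA kit with 12 PCR cycles, per the labels' protocols. Genome build, annotation and strand setting of the counting were not given in the sources used here. Symbols stand as deposited, and reads of overlapping or near-identical genes may be split or shared. A spreadsheet date stands for the symbol in 27 rows and 2 symbols occur more than once.

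Groups follow the sample labels, which give the dose of this set as 22 in the sample tag and 22.5 mg/m3 in the treatment text. The 12 libraries were fitted alone in R 4.3.3 with edgeR 4.0.16: filterByExpr with a minimum count of 10 left 14939 genes holding 99.9% of the counts, TMM scaling, robust quasi-likelihood fit, two-sided test, and Benjamini-Hochberg adjusted p under 0.05 over all genes tested. Standard errors (SE) are the log2 fold change divided by the square root of F. CPM of genes are TMM-scaled, and summed CPM of lists use plain library totals. Differences between doses came from a fit of 53 libraries in 10 groups, without the 7 libraries labelled as outliers. Promoters are from RefSeq, build GRCr8, matched by symbol. Tests were checked on simulated counts. No pair of libraries agreed within sampling noise (smallest chi-square per degree of freedom 3.47).

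Named genes are the 12 largest rises and 12 largest falls with at least 1 CPM, a fixed panel, the 4 smallest p-values of each list, the 6 smallest p-values of each difference and the 10 widest-spread genes of each group. The set, the lists and the panel were chosen with earlier results of these data known. Alternatives were DESeq2 1.42.0, limma 3.58.1 voom with quality weights, other scalings, filters, thresholds and sample sets, and leaving out each library. Total counts per library were 9947600 to 16176900, and their counting error is only part of the spread between rats. Proteins and coordinates of other genes were not used here.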

Additional observations from a re-analysis of the deposited data

Results flagged for a closer look

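Samples that stood far from the rest of their group and effects that differed from those at 11.25 mg/m3 are listed here. They cover 115 of the genes named, and library measures. Of 230 groups of gene values over 115 genes, 1 in 20 would be about 11.5, the number flagged by chance if values were normal and genes not chosen by spread. Flags for a single rat numbered 21 among genes. Some genes, such as Bpifa1, Ndufa1-2, Tma7 and Clca1, were named for their wide spread, so the 2 numbers cannot be compared.

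Air rat 54 was high for Gabrp (5.34 CPM), Tmc5 (4.30 CPM), Ccl7 (2.70 CPM), Bpifa1 (71.2 CPM), Tma7 (38.5 CPM) and Clca1 (33.0 CPM), and its library had the largest total (16.2 in units of 1000000 counts). Air rat 50 was high for Ube2t (0.931 CPM), Scgb1a1 (10187 CPM) and Ndufa1-2 (45.7 CPM), a row that shares its name with another row so that its counting is uncertain. Air rat 52 was high for Star (10.1 CPM), Ccl9 (67.7 CPM) and Psat1 (11.7 CPM). Among exposed rats, rat 62 was high for Bpifa1 (108.8 CPM) and Clca1 (83.0 CPM), and rat 66 for Ccl7 (6.96 CPM), Tma7 (36.3 CPM) and Slc7a5 (24.6 CPM). Exposed rat 65 was high for Hba2 (1162 CPM), a near-identical copy of another globin gene, and for Cdc20 (15.04 CPM). Exposed rat 64 was high for Mmp12 (36.8 CPM), and rat 63 low for Slc26a4 (9.89 CPM). The median absolute log2 deviation set rat 65 (0.302) and air rat 50 (0.287) apart.

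Over all genes tested for a difference from 11.25 mg/m3, the effect at 22.5 mg/m3 was more positive in 0.7% and more negative in 0.0813%. Named genes were chosen partly by their change or p-value at 22.5 mg/m3 and by the p-value of this difference. The number of named genes that pass cannot be compared with these shares. The effect at 22.5 mg/m3 minus that at 11.25 mg/m3, on the log2 scale, passed the edgeR test of the difference in 32 named genes. Among genes of cell division and replication it was 1.43 for Cdk1, 0.96 for Cdc20, 0.94 for Plk1, 0.90 for Ccnb1, 0.94 for Mki67, 1.18 for Top2a, 1.68 for Nek2, 2.14 for Ube2t, 1.87 for E2f7 and 1.13 for Diaph3. It was 1.10 for Mcm5, 0.52 for Mcm3, 1.04 for Rrm2 and 0.88 for Tk1. Among multiciliogenesis and airway genes it was 2.42 for Foxn4, 2.15 for Ccno, 1.24 for Ccdc67, 1.57 for Stil, 2.90 for Prss30, 2.37 for Gabrp and 2.08 for Tmc5. Among defence and inflammation genes it was 0.99 for Chia, 0.66 for Chi3l1, 0.56 for C3, 1.99 for Mbl1, 2.04 for Cxcl6, 0.60 for Il1rn and 0.63 for Sod2. It was 2.31 for Tnn, 1.69 for Ybx2, -0.92 for Adhfe1 and -0.32 for Cyp4b1. Foxn4, Ube2t, Mbl1 and Tnn did not pass the count filter at 11.25 mg/m3 alone and were not tested there. Their effect at 11.25 mg/m3 is therefore poorly measured, and the size of their differences is uncertain.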

How the results depend on the processing

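Set against its value in the 12-library fit, no named gene changed sign under a setting run where either value was called. Some genes not called did change sign, as for Bpifa1 (log2 fold change 0.22, and -2.48 to 1.65 with 1 library left out). The 2.14% of tested genes called higher (319) became 5.18% in the 53-library fit (828), 0.997% with all 60 libraries, 3.91% with limma-voom and quality weights (584), 3.32% without rats 65 and 50 (497), and 1.06% at an adjusted p under 0.01. Leaving out 1 library at a time gave 1.42% to 2.75% (212 to 413). The 22 genes called lower became 259 in the 53-library fit, 5 with all 60 libraries, 77 with DESeq2, 118 with limma-voom, 84 without rats 65 and 50, 67 without rats 65, 50 and 66, 5 at an adjusted p under 0.01, and 8 with a 1.5-fold minimum. Leaving out 1 library at a time gave 10 to 41. The 125 genes with a different effect from 11.25 mg/m3 became 0 with all 60 libraries, 212 with limma-voom and 49 in a fit of only those 2 doses, and 94 to 274 with 1 library left out. The 0 genes with a different effect from 45 mg/m3 became 1 with limma-voom. Of the 341 genes called, 340 were still called in the 53-library fit and by DESeq2, 336 by limma-voom, 323 without rats 65 and 50, 128 with all 60 libraries and 222 to 322 with 1 library left out. The settings without rats 65 and 50, and without rat 66 as well, were chosen after seeing the data. The causes were not tested. No paired analysis was possible because the groups share no replicate numbers. With 6 rats a group and this spread, small changes may go uncalled.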
